A study of Rattus norvegicus with 19 samples.

Results

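The comparison of combined empagliflozin (EMPA) and pirfenidone (PFD) with no drug used the 3 left ventricle RNA-seq libraries titled EMPA and PFD treated at 9 weeks and the 3 titled untreated at 9 weeks, 6 of the 19 samples of the series. All 6 hearts, 1 library each, came from Sprague-Dawley rats, 24 weeks old when housed 1 week before the experiment and given the nitric oxide synthase inhibitor L-NAME at 0.5 g/L in drinking water with a diet drawing 60% of its energy from fat, a model of heart failure with preserved ejection fraction (HFpEF). EMPA + PFD rats then received EMPA at 0.35 g/kg and PFD at 0.3 g/kg by gavage each day for 4 weeks, and untreated rats received phosphate-buffered saline. Hearts were taken at week 9. The libraries held 9360259, 10318343 and 10693001 counts in EMPA + PFD and 9951011, 10142209 and 9640990 counts in untreated.

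EMPA inhibits the sodium-glucose cotransporter SGLT2 of the kidney and is given in diabetes and heart failure, and PFD is an antifibrotic drug given in lung fibrosis. The adult ventricle makes most of its ATP by oxidizing fatty acids in mitochondria, under transcription factors of the PPAR and ERR families and their coactivator PGC-1alpha. Fibroblasts, endothelial cells and leukocytes, which lie between the cardiomyocytes, make most of the matrix, the adhesion molecules and the cytokines of the tissue.

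The Y-linked gene Eif2s3y and 2 more genes were at or near 0 counts in each library of 1 group and abundant in the other. Eif2s3y, a subunit gene of translation initiation factor 2, had 825, 906 and 999 counts in EMPA + PFD and 0 counts in each untreated library, at least 327-fold higher against a floor of 3 counts per library. Ddx3, an RNA helicase symbol that may stand for a Y-linked copy, had 968, 1166 and 1421 counts against 0, at least 424-fold higher. LOC100911498 had 2, 1 and 4 counts in EMPA + PFD and 13032, 26816 and 14759 counts in untreated. Ddx3y was low in both groups, with 4, 23 and 10 counts in EMPA + PFD and 11, 17 and 11 in untreated, and Sry and Usp9y had 0 counts in the 6 libraries. The sample labels give every heart as male, and the paper also says that RNA was sequenced from males, while the treatment description speaks of groups with both sexes. The untreated hearts, although labeled male, thus had 0 counts of the Y-linked Eif2s3y, and the cause was not tested. Whatever separates Eif2s3y, Ddx3 and LOC100911498 coincides with the treatment in all 6 hearts, so that the 2 cannot be told apart in any comparison of EMPA + PFD with untreated given here. Both PFD libraries had the untreated pattern and both EMPA libraries the other. A fit with a term for counts of Eif2s3y could estimate that term from the HFpEF group of week 5 alone, where libraries of both kinds occur.

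Untreated replicate 2 stood apart from the other untreated hearts. Its log2 CPM (counts scaled to library size after TMM normalization) had a correlation across genes of 0.939 with replicate 1 and 0.948 with replicate 3, against 0.986 between those 2. The 14 listed ventricular cardiomyocyte markers summed to 105063, 123339 and 96591 CPM in EMPA + PFD and 89092, 23039.8 and 82829.7 CPM in untreated, where replicate 2 was far below the other libraries and all 3 treated hearts lay above the untreated ones. The 14 atrial markers, with Nppa as the most abundant, summed to 1676, 3059 and 1950.3 CPM in EMPA + PFD and 1955, 16748 and 2301 CPM in untreated, with replicate 2 far above the rest. The atrial light chain Myl4 had 4.33, 1597 and 4.85 CPM in untreated and 4.02, 4.18 and 4.28 CPM in EMPA + PFD, and its log2 fold change of −7.00 became −0.14 without replicate 2. Sarcolipin (Sln), an atrial inhibitor of the calcium pump, had 0.317, 518 and 0.632 CPM in untreated and 0.710, 0.478 and 0.418 CPM in EMPA + PFD, and its value went from −8.32 to 0.16. Values without this library are therefore given beside the gene groups. In bulk tissue, fewer cells of a type and less RNA per cell cannot be told apart.

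**Figure D1:**
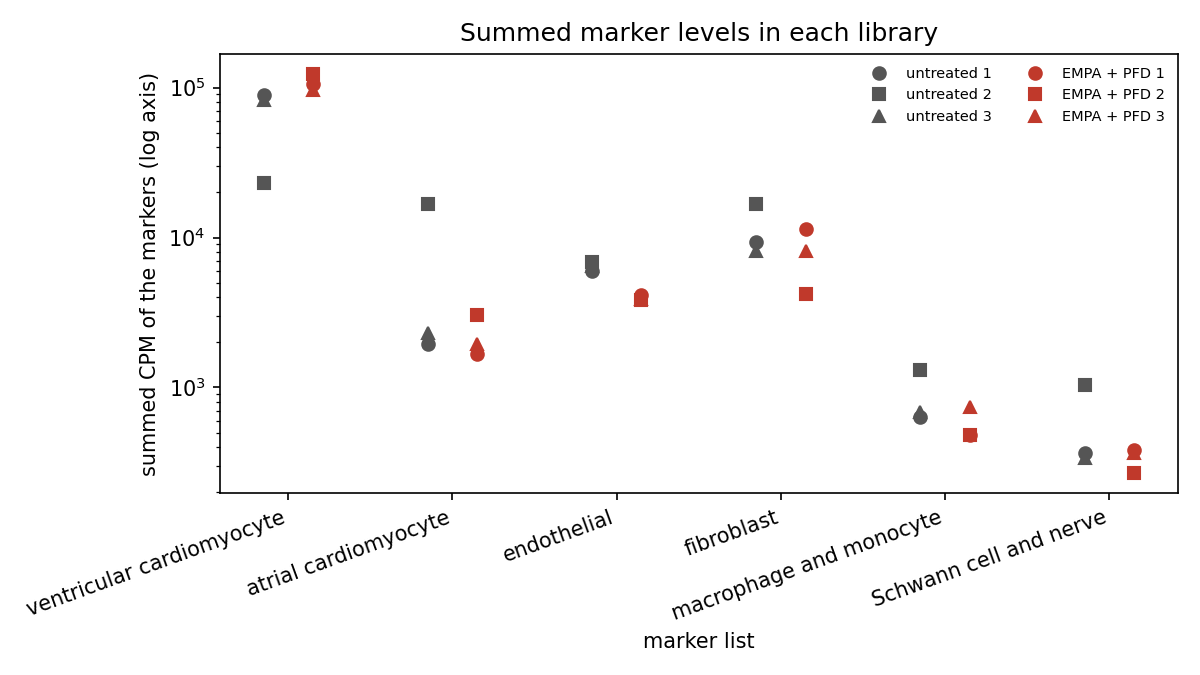
Summed CPM of the markers of 6 cell types (log axis), with 1 symbol for each library of EMPA + PFD (red) and untreated (gray). Untreated replicate 2 (gray square) lies below the other 5 libraries in the ventricular markers and above them in the atrial, endothelial, fibroblast, macrophage and Schwann cell markers.

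Of 12388 tested genes, 473 were differentially expressed genes (DEGs), with an adjusted p under 0.05 in edgeR and at least a 2-fold change. This is 3.82% of the genes, of which 290 were higher in EMPA + PFD (2.34%) and 183 lower (1.48%). Normalization by the upper quartile turned this split to 240 higher and 275 lower, and the term for Eif2s3y counts to 172 and 257. At an adjusted p under 0.05 alone there were 1501 genes (12.1%), 817 higher (6.6%) and 684 lower (5.52%). This rule is the one used for the gene groups, and passing refers to it in edgeR where no other tool is named. The counts of each gene list are to be read against these shares. An unadjusted p under 0.05 was found for 4055 genes (32.7%). DESeq2 called 2551 genes (20.6%) and limma voom 3716 (30%) at an adjusted p under 0.05. In the fit with the term for Eif2s3y counts 207 genes were higher (1.67%) and 287 lower (2.32%). All 3 treated hearts lay outside the untreated range in 2319 genes that were higher (18.7%) and 2317 that were lower (18.7%). Without untreated replicate 2, an adjusted p under 0.05 was reached by 86 genes upward (0.697%) and 54 downward (0.438%). The other libraries also moved these numbers, to 83 and 27 genes without EMPA + PFD replicate 2, 216 and 97 without EMPA + PFD replicate 3, 252 and 165 without untreated replicate 3, 1114 and 792 without EMPA + PFD replicate 1, and 1256 and 1007 without untreated replicate 1. An adjusted p under 0.05 in the same direction with any 1 of the 6 libraries left out was found for 70 higher genes (0.565%) and 24 lower genes (0.194%).

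Of the DEGs, 53 (0.428% of the tested genes) were DEGs with any 1 of the 6 libraries left out, 42 higher and 11 lower in EMPA + PFD. With the term for Eif2s3y counts, 52 of them had the same direction and 27 an adjusted p under 0.05; the exception in direction was LOC100911498. Fitted on the 6 libraries alone, 5 genes were DEGs, namely LOC100911498, Eif2s3y, Ddx3, Cryl1 and Eno3.

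Several metabolic genes rose in the full fit and in all 6 fits with 1 library left out. Cryl1, a crystallin-related dehydrogenase of the uronate pathway, measured 151, 226 and 169.9 CPM in EMPA + PFD and 26.4, 17.3 and 17.7 CPM in untreated. The lowest treated heart was several-fold above the highest untreated heart, with a log2 fold change of 3.16 (SE 0.29, adjusted p = 0.000216, edgeR). Acss3, a mitochondrial acyl-CoA synthetase, was low in all hearts, at 2.96, 6.93 and 8.67 CPM in EMPA + PFD and 1.06, 1.06 and 0.421 CPM in untreated, with a log2 fold change of 2.85 (SE 0.48, adjusted p = 0.00677, edgeR). Angptl4, a secreted inhibitor of lipoprotein lipase, was at 65.2, 59.2 and 77.2 CPM in EMPA + PFD and 12.4, 19.2 and 19.8 CPM in untreated. All treated hearts lay above all untreated ones, by 1.97 (SE 0.35, adjusted p = 0.00834, edgeR) on the log2 scale. Prkaa2, the catalytic alpha2 subunit of AMP-activated kinase, measured 48.6, 88.5 and 81.8 CPM in EMPA + PFD and 27.6, 5.44 and 14.1 CPM in untreated, with untreated replicate 2 the lowest. Its log2 fold change of 2.22 (SE 0.41, adjusted p = 0.00915, edgeR) was 1.80 without that library. Ppargc1a, which encodes PGC-1alpha, measured 36.1, 94.0 and 90.3 CPM in EMPA + PFD and 25.5, 10.4 and 17.7 CPM in untreated. Treated replicate 1 was closest to the untreated range, and the log2 fold change was 2.04 (SE 0.37, adjusted p = 0.00883, edgeR), or 1.76 without untreated replicate 2.

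Further genes were chosen because they rose in every such fit. Epha3, an ephrin receptor, had 5.68, 12.2 and 9.92 CPM in EMPA + PFD and 0.950, 0.974 and 0.421 CPM in untreated, with each untreated heart under 1 CPM, and its log2 fold change was 3.53 (SE 0.62, adjusted p = 0.00792, edgeR). Chrm2, the muscarinic receptor through which the vagus nerve slows the heart, measured 46.7, 111 and 68.0 CPM in EMPA + PFD and 20.0, 11.4 and 12.4 CPM in untreated. Treated hearts were higher without overlap, by 2.36 (SE 0.43, adjusted p = 0.00854, edgeR). Fgf1, a fibroblast growth factor, measured 73.7, 166 and 166 CPM in EMPA + PFD and 48.5, 14.2 and 36.7 CPM in untreated, and its log2 fold change of 2.03 (SE 0.38, adjusted p = 0.00934, edgeR) was 1.67 without untreated replicate 2. Gja3, a connexin, measured 26.1, 30.8 and 25.1 CPM in EMPA + PFD and 9.39, 3.98 and 5.58 CPM in untreated, with a narrow range in the treated hearts and a log2 fold change of 2.12 (SE 0.35, adjusted p = 0.00677, edgeR). Slc4a1, the anion exchanger of red blood cells, measured 30.0, 26.7 and 21.8 CPM in EMPA + PFD and 2.22, 0.731 and 3.06 CPM in untreated and had the highest log2 fold change of the named genes that held, 3.74 (SE 0.68, adjusted p = 0.00893, edgeR). Sptb, the beta chain of erythroid spectrin that muscle also makes, measured 116, 179.9 and 152 CPM in EMPA + PFD and 60.9, 21.5 and 40.0 CPM in untreated, a log2 change of 1.88 (SE 0.31, adjusted p = 0.00677, edgeR). Hbb, the most abundant marker of the erythroid list, measured 105, 417 and 176 CPM in EMPA + PFD and 213, 170.5 and 279 CPM in untreated, with overlapping groups. The remaining genes of this choice that were higher were the phosphatase Ppm1e (log2 fold change 2.17), Mfap3l (2.10) and the deubiquitinase Usp13 (1.86), each higher in 3 of 3 treated hearts than in any untreated heart.

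Among the genes that were lower, Tlx1, a homeobox factor, measured 0.710, 1.20 and 1.25 CPM in EMPA + PFD and 6.22, 5.20 and 6.22 CPM in untreated, with a log2 fold change of −2.46 (SE 0.37, adjusted p = 0.00559, edgeR). Lrat, which esterifies retinol for storage, measured 5.68, 4.66 and 6.16 CPM in EMPA + PFD and 23.0, 19.3 and 16.9 CPM in untreated. Every treated heart was under the lowest untreated one, with a log2 fold change of −1.84 (SE 0.26, adjusted p = 0.00482, edgeR). Chrdl1, a secreted antagonist of bone morphogenetic proteins, measured 4.02, 8.49 and 4.81 CPM in EMPA + PFD and 16.1, 23.5 and 23.5 CPM in untreated, a change of −1.87 (SE 0.30, adjusted p = 0.00677, edgeR). Smox, spermine oxidase, measured 15.8, 10.9 and 12.8 CPM in EMPA + PFD and 26.1, 47.4 and 33.6 CPM in untreated, lower without overlap by −1.44 (SE 0.19, adjusted p = 0.00482, edgeR). Bbc3, the p53 target PUMA that promotes apoptosis, measured 5.91, 4.90 and 3.24 CPM in EMPA + PFD and 9.81, 13.1 and 13.9 CPM in untreated, and its log2 fold change was −1.39 (SE 0.25, adjusted p = 0.00854, edgeR). Csf1, the growth factor of macrophages, measured 35.2, 21.2 and 29.3 CPM in EMPA + PFD and 54.5, 82.1 and 62.4 CPM in untreated, and its log2 fold change was −1.22 (SE 0.20, adjusted p = 0.00677, edgeR). The remaining named genes were Dpep3 (log2 fold change −2.33), Aif1l (−1.36), the protein disulfide isomerase Pdia5 (−1.30) and Lfng, a modifier of Notch receptors (−1.18). Dpep3 was at 0.828, 0.598 and 0.940 CPM in EMPA + PFD and 2.95, 4.87 and 4.21 CPM in untreated, under 1 CPM in each treated heart.

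**Figure D2:**
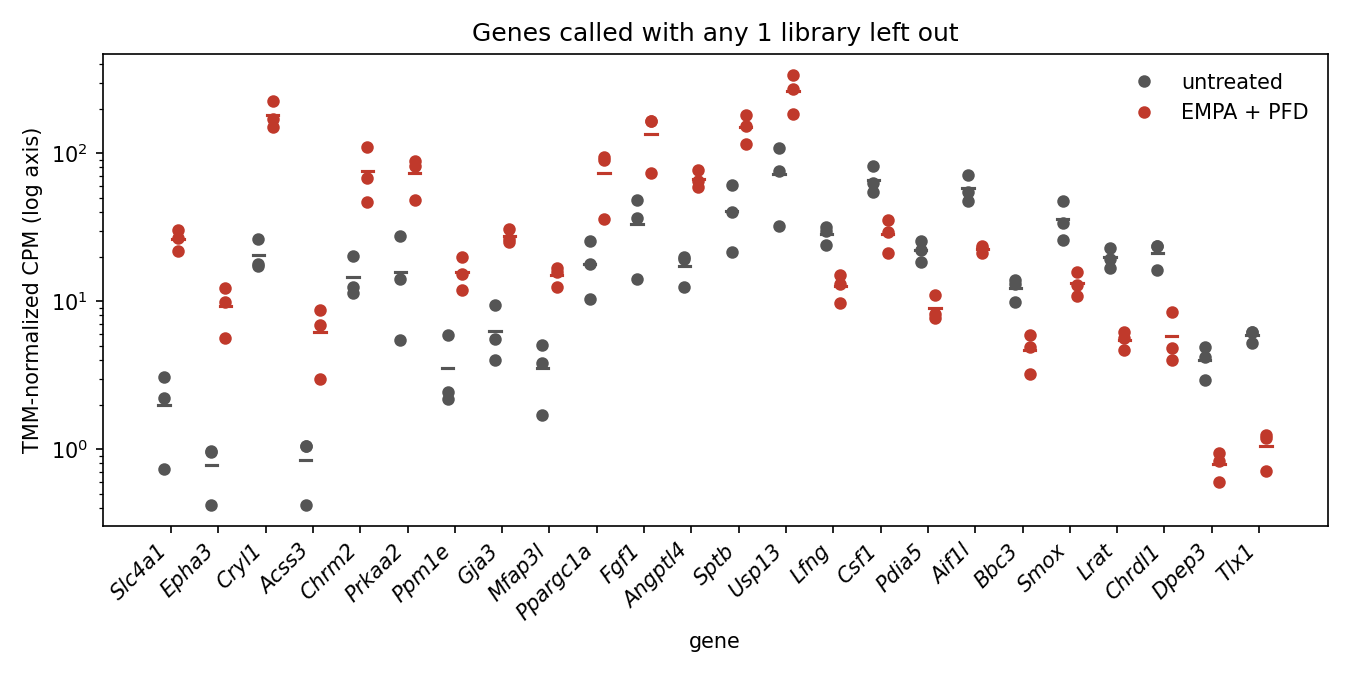
TMM-normalized CPM (log axis) of the 24 genes chosen by fold change among the DEGs that stayed so with any 1 of the 6 libraries left out, ordered by log2 fold change, with 1 point for each of 3 libraries of EMPA + PFD (red) and untreated (gray) and bars for the means. The points of the groups do not overlap in any of these genes, which the choice of the genes required.

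Of the gene lists, fatty acid use and the ketone and PPAR-alpha targets had the highest medians with all libraries and without untreated replicate 2, but not with the term for Eif2s3y counts, where the glucocorticoid-responsive genes were highest. The ventricular markers moved in the same direction, with a median of 0.82 and 14 of 14 members above 0, and their part in the values of the metabolic lists was not tested. Of the 30 tested genes of fatty acid uptake and oxidation, 4 rose (13.3%, against 6.6% of all tested genes) and 0 fell. The median log2 fold change of the list was 1.12, against −0.032 over all tested genes. Without untreated replicate 2 the median was 0.74 and 1 gene passed. Cpt1a, which brings long-chain fatty acids into mitochondria, measured 132, 195 and 199 CPM in EMPA + PFD and 103, 79.2 and 90.1 CPM in untreated, with a log2 fold change of 0.95 (SE 0.17, adjusted p = 0.00834, edgeR), and it was the only member to pass with any 1 library left out. Hadhb, a subunit of the trifunctional protein of beta-oxidation, measured 2861, 4335 and 3625 CPM in EMPA + PFD and 1909, 253 and 1107 CPM in untreated, where untreated replicate 2 was lowest, and its log2 fold change was 1.73, or 1.26 without it. The triglyceride lipase Pnpla2 changed by 1.67, or 1.31 without that library. Fabp3, the fatty acid binding protein with the most counts of the list, measured 3715, 4275 and 4274 CPM in EMPA + PFD and 3561, 441 and 2797 CPM in untreated and did not pass. Of 20 ketone and PPAR-alpha targets, 8 rose and 0 fell (median 1.03; 0.76 without untreated replicate 2, where 2 passed). They included Angptl4. The thioredoxin-binding protein Txnip, with the most counts, measured 2306, 3163 and 2984 CPM in EMPA + PFD and 1568, 1322 and 1606 CPM in untreated and rose by 0.91 on the log2 scale. Fatty acid uptake and oxidation had 0 calls with the term for Eif2s3y counts (median 1.27) and ketone and PPAR-alpha targets 4 higher (median 1.15).

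The pyruvate and tricarboxylic acid cycle list had 6 of 28 members higher and 0 lower (median 0.92), and 0 passed without untreated replicate 2 (median 0.58). Ogdh, a subunit of the 2-oxoglutarate dehydrogenase complex, measured 520.2, 786 and 683 CPM in EMPA + PFD and 305, 101 and 206 CPM in untreated. The groups did not overlap with or without replicate 2, and the log2 fold change was 1.70 (SE 0.35, adjusted p = 0.0127, edgeR), or 1.38 (adjusted p = 0.0503, edgeR) without it. Citrate synthase (Cs) had 1.55 and 1.13 in the same fits, and the pyruvate dehydrogenase phosphatase Pdp1 1.14 and 0.94. In branched-chain amino acid breakdown 6 of 18 rose (median 0.87; 0.59 without that library, where 1 passed), among them Acadsb, at 31.0, 33.1 and 33.4 CPM in EMPA + PFD and 18.6, 15.1 and 15.3 CPM in untreated, which passed with any 1 library left out. The phosphatase Ppm1k, which activates the branched-chain dehydrogenase, changed by 1.35, its subunit Dbt by 0.99 and Aldh6a1, with the most counts, by 1.29. These were 1.13, 0.70 and 0.91 without untreated replicate 2, and none of the 3 passed then. The pyruvate and tricarboxylic acid list had 0 calls with the term for Eif2s3y counts (median 1.28) and branched-chain amino acid breakdown 1 higher (median 1.20).

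In oxidative phosphorylation 0 of 42 members passed in edgeR in either direction, although 40 had a log2 fold change above 0. The median was 0.44, and 0.080 without untreated replicate 2. Atp5f1b, a subunit of ATP synthase and the member with the most counts, measured 9278, 12243 and 10214 CPM in EMPA + PFD and 8364, 2313 and 7513 CPM in untreated, so that replicate 2 was several-fold under the other 5 libraries. Of these genes, 4 of 42 had an unadjusted p under 0.05 (all genes 32.7%), DESeq2 called 2 (all genes 20.6%) and limma voom 3 (all genes 30%). In energy transfer 0 of 15 passed (median 0.60, 0.31 without that library), and the ADP/ATP carrier Slc25a4 measured 6628, 8056 and 6892 CPM in EMPA + PFD and 6567, 1744 and 4971 CPM in untreated. In this list, 6 of 15 had an unadjusted p under 0.05 (all genes 32.7%), DESeq2 called 1 (all genes 20.6%) and limma voom 6 (all genes 30%). Of the mitochondrial and PPAR regulators 7 of 24 rose and 0 fell (median 0.63), and 3 passed without replicate 2 (median 0.39). Besides Ppargc1a they included the nuclear receptor Esrrg, at 31.9, 60.0 and 50.2 CPM in EMPA + PFD and 22.2, 7.63 and 18.2 CPM in untreated, and Dnm1l, the GTPase of mitochondrial fission, at 111, 133 and 129.6 CPM in EMPA + PFD and 70.5, 55.0 and 58.3 CPM in untreated. Both were higher in each treated heart, by 1.57 and 1.02. Perm1, the member with the most counts, had 409.5, 356 and 328 CPM in EMPA + PFD and 306, 39.8 and 236 CPM in untreated and did not pass. In glucose use and glycogen 6 of 34 rose (median 0.69), and 0 passed without replicate 2 (median 0.40). Eno3, the muscle enolase, measured 333, 393 and 350.3 CPM in EMPA + PFD and 96.6, 98.7 and 77.4 CPM in untreated, a change of 1.98 (SE 0.46, adjusted p = 0.0192, edgeR), which was 2.04 (adjusted p = 0.0706, edgeR) without that library. Glycogen synthase Gys1 changed by 1.36 and glycogen phosphorylase Pygb by 1.28, or by 1.05 and 0.96 without it, and Ldhb, with the most counts, measured 5826, 4928 and 3995 CPM in EMPA + PFD and 4759, 759 and 4662 CPM in untreated. Oxidative phosphorylation had 0 calls with the term for Eif2s3y counts (median 0.49), energy transfer 0 calls (median 0.60), mitochondrial and PPAR regulators 2 higher (median 0.54) and glucose use and glycogen 2 higher (median 1.06).

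**Figure D3:**
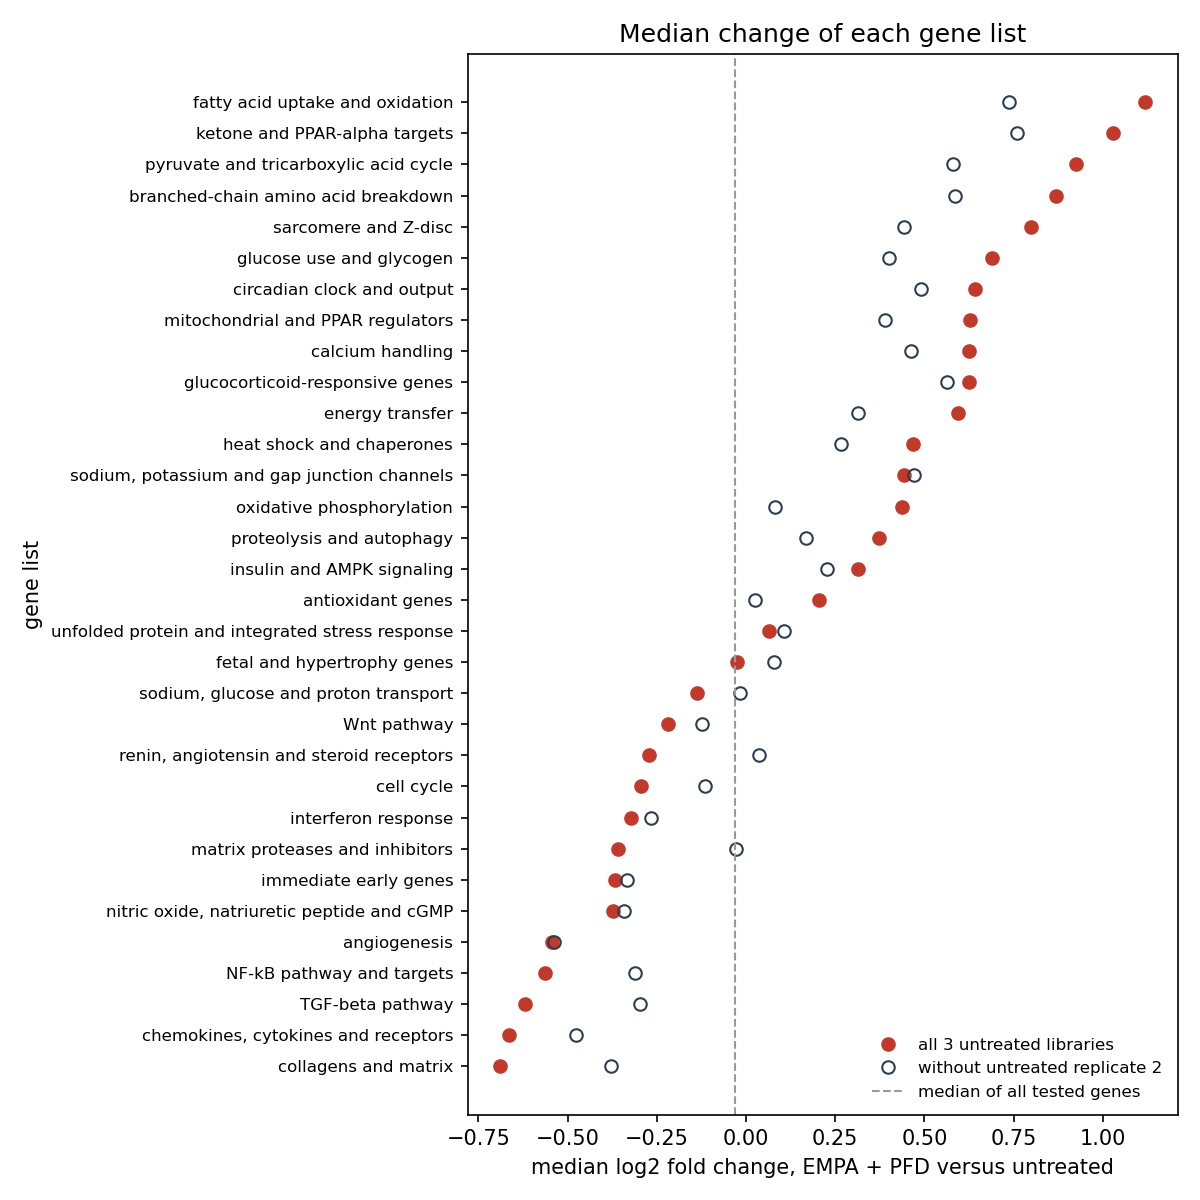
Median log2 fold change of EMPA + PFD versus untreated for each of the 32 gene lists with all libraries (filled) and without untreated replicate 2 (open), beside the median of all tested genes (dashed line). For most of the lists with high or low medians the open points lie nearer to the dashed line, as for fatty acid uptake and oxidation.

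Most called genes of contraction and excitation were higher in EMPA + PFD. The ventricular markers, some of which are also members of these lists, summed to more CPM in each treated heart than in any untreated heart. Their part in the values of these lists was not tested. Of 35 sarcomere and Z-disc genes 5 rose and 0 fell (median 0.80, 0.44 without untreated replicate 2, where 2 passed). Nebl, which lines the thin filament at the Z-disc, measured 98.5, 234 and 200.4 CPM in EMPA + PFD and 62.0, 45.6 and 46.7 CPM in untreated, a change of 1.79 (SE 0.26, adjusted p = 0.00482, edgeR) that passed with any 1 library left out. Lmod2, which elongates thin filaments, measured 35.7, 119 and 66.8 CPM in EMPA + PFD and 24.1, 7.39 and 23.3 CPM in untreated, and the histone methyltransferase Smyd1, a myosin chaperone, 211, 284 and 213 CPM in EMPA + PFD and 114, 32.0 and 86.5 CPM in untreated. They changed by 2.02 and 1.61, or 1.64 and 1.23 without that library. The abundant contractile genes did not pass: Myh6 had 9191, 32560.4 and 28984 CPM in EMPA + PFD and 19379, 7239 and 12557 CPM in untreated, and Myh7, the slow myosin, 20537, 11283 and 4552 CPM in EMPA + PFD and 5339, 866 and 10446 CPM in untreated. The treated hearts differed widely among themselves in both myosins, and the groups overlapped. The other genes with the most counts were Mb, Actc1, Atp2a2 and Tnnt2, with log2 fold changes of 0.44, 0.83, 1.25 and 0.43, of which none passed, and untreated replicate 2 was the lowest of the 6 libraries in each. Sarcomere and Z-disc genes had 3 higher with the term for Eif2s3y counts (median 1.38).

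In calcium handling 9 of 26 rose and 2 fell (median 0.62), and 0 passed without untreated replicate 2 (median 0.46). Cacna2d1, an auxiliary subunit of the L-type channel, measured 35.9, 66.5 and 50.9 CPM in EMPA + PFD and 21.4, 19.2 and 17.4 CPM in untreated, a change of 1.40 (SE 0.28, adjusted p = 0.0115, edgeR), and 1.40 (adjusted p = 0.0536, edgeR) without that library. Micu2 and Mcu, of the mitochondrial calcium uniporter, changed by 0.73 and 0.65, and the ryanodine receptor Ryr2 by 1.10. The T-type channel Cacna1g measured 27.2, 31.4 and 20.2 CPM in EMPA + PFD and 30.9, 294 and 61.7 CPM in untreated, and its fall of −2.30 was −0.82 without replicate 2. Of the sodium, potassium and gap junction channels 7 of 36 rose and 0 fell (median 0.44, 0.47 without that library, where 1 passed). Scn1a, a sodium channel, measured 28.4, 33.5 and 21.0 CPM in EMPA + PFD and 7.70, 6.82 and 9.06 CPM in untreated and passed with any 1 library left out. Hcn4, the pacemaker channel, measured 18.6, 24.7 and 14.3 CPM in EMPA + PFD and 3.17, 4.30 and 9.69 CPM in untreated, higher in each treated heart. Kcnj3, a potassium channel opened by muscarinic receptors, measured 32.6, 48.5 and 41.9 CPM in EMPA + PFD and 13.4, 18.3 and 7.17 CPM in untreated, and Kcnd2, of the transient outward current, 16.2, 18.5 and 21.1 CPM in EMPA + PFD and 10.3, 2.35 and 5.48 CPM in untreated. Without untreated replicate 2 the log2 fold changes of these last 3 were 1.58, 2.00 and 1.23, against 1.75, 1.65 and 1.63 with all libraries. Their adjusted p without that library was 0.112, 0.0710 and 0.0634 in edgeR. Gja1, the main ventricular connexin, and Abcc9, a subunit of the ATP-sensitive potassium channel, had 0.39 and 0.22 and did not pass. Calcium handling had 2 higher and 1 lower with the term for Eif2s3y counts (median 0.64) and the channels 0 calls (median 0.67).

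In the nitric oxide, natriuretic peptide and cGMP list, which covers the pathway that L-NAME blocks at its first step, 3 of 26 rose and 2 fell (median −0.37, −0.34 without untreated replicate 2, where 1 passed). Pde3a, a phosphodiesterase that cGMP inhibits, measured 78.6, 145 and 119.7 CPM in EMPA + PFD and 57.0, 31.0 and 41.7 CPM in untreated. It was higher without overlap and passed with any 1 library left out, with a log2 fold change of 1.41 (SE 0.25, adjusted p = 0.00854, edgeR). Prkg1, the cGMP-dependent kinase, measured 5.44, 15.4 and 10.6 CPM in EMPA + PFD and 5.38, 3.57 and 3.37 CPM in untreated. Ass1, which regenerates arginine, measured 5.56, 4.54 and 4.49 CPM in EMPA + PFD and 11.2, 10.6 and 13.4 CPM in untreated, a fall of −1.26 that became −1.34 (adjusted p = 0.0557, edgeR) without that library. Cav1, with the most counts, had 821, 625 and 728 CPM in EMPA + PFD and 1142, 1056 and 1126 CPM in untreated and did not pass. In sodium, glucose and proton transport 1 of 25 rose and 1 fell (median −0.14, −0.018 without it, where 0 passed), the bicarbonate transporter Slc4a4, at 10.8, 17.8 and 16.0 CPM in EMPA + PFD and 7.81, 6.90 and 6.01 CPM in untreated, and the anion exchanger Slc4a2, at 51.7, 53.9 and 48.5 CPM in EMPA + PFD and 64.4, 75.8 and 69.1 CPM in untreated. Aqp1 had the most counts and −0.14. Of the renin, angiotensin and steroid receptor genes 1 of 20 rose, the peptidase Lnpep (0.90), and 1 fell, the aminopeptidase Enpep (−1.04). The median was −0.27 (0.035 without untreated replicate 2, where 0 passed), and Nr3c1 had −0.085. In the sodium and renin lists 4% and 5% of members passed in each direction, against 6.6% higher and 5.52% lower of all tested genes. In fetal and hypertrophy genes 3 of 23 rose and 1 fell (median −0.025, 0.078 without it, where 0 passed). These were Mef2a (0.62), Mef2d (0.65), the slow skeletal troponin Tnni1 (2.14) and Myl4. The cGMP list had 1 higher and 3 lower with the term for Eif2s3y counts (median −0.55), sodium and glucose transport 1 higher and 1 lower (median 0.48), renin and steroid receptors 0 calls (median 0.24) and fetal and hypertrophy genes 0 calls (median 0.58).

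Of 17 glucocorticoid-responsive genes 4 rose and 0 fell (median 0.62, 0.56 without untreated replicate 2, where 1 passed). Angptl4 was the only member called with any 1 library left out. Zbtb16, a transcription factor induced by glucocorticoids, measured 10.1, 106 and 95.4 CPM in EMPA + PFD and 12.1, 9.34 and 11.7 CPM in untreated. Treated replicates 2 and 3 were high and replicate 1 was within the untreated range, with a log2 fold change of 2.68 (SE 0.59, adjusted p = 0.0157, edgeR). Pik3r1, the regulatory subunit of PI3-kinase, measured 38.9, 87.5 and 107 CPM in EMPA + PFD and 35.7, 30.0 and 25.6 CPM in untreated, with replicate 1 again the lowest treated heart. In the circadian list 6 of 18 rose and 1 fell (median 0.64), and 0 passed without untreated replicate 2 (median 0.49). Tef, a clock-output transcription factor, measured 107, 192 and 262 CPM in EMPA + PFD and 93.9, 70.1 and 88.9 CPM in untreated, Usp2, a deubiquitinase of clock proteins, 42.2, 135 and 128 CPM in EMPA + PFD and 40.4, 22.7 and 30.1 CPM in untreated, and the repressor Cry2 65.9, 139 and 154 CPM in EMPA + PFD and 57.7, 61.5 and 65.3 CPM in untreated. Replicate 1 was the lowest treated heart in all 3 and lay just above the untreated range. Per2, at 22.5, 141 and 185 CPM in EMPA + PFD and 20.2, 45.8 and 29.4 CPM in untreated, also rose but overlapped. So did Ciart, at 2.37, 13.4 and 20.8 CPM in EMPA + PFD and 2.64, 2.11 and 3.48 CPM in untreated. Npas2, the member that fell, measured 49.9, 16.3 and 9.82 CPM in EMPA + PFD and 50.0, 109.9 and 50.4 CPM in untreated. Per1, with the most counts, had 159, 367 and 327 CPM in EMPA + PFD and 234, 282 and 255 CPM in untreated, with overlapping groups. The hour at which each heart was taken is not given in the sources used here, and its part in these values was not tested. Glucocorticoid-responsive genes had 7 higher with the term for Eif2s3y counts (median 2.12) and the circadian list 4 higher (median 1.32).

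Of the immediate early genes 4 of 38 were lower and 1 higher (median −0.37), and 0 passed without untreated replicate 2 (median −0.33). The orphan receptor Nr4a2 measured 28.1, 21.4 and 17.3 CPM in EMPA + PFD and 50.2, 86.4 and 55.6 CPM in untreated, a change of −1.53 (SE 0.30, adjusted p = 0.0113, edgeR). Klf4 measured 139, 152 and 101 CPM in EMPA + PFD and 228, 227 and 261 CPM in untreated, and Klf6 256, 176 and 168 CPM in EMPA + PFD and 294, 309.7 and 339.8 CPM in untreated, both zinc finger factors. All treated hearts were below all untreated ones in these 3 genes. Ier2, the other member that fell (−0.74), had overlapping groups. It measured 126, 64.0 and 81.9 CPM in EMPA + PFD and 119.5, 181 and 152 CPM in untreated. Nr4a3, the member that rose, measured 4.97, 53.4 and 33.4 CPM in EMPA + PFD and 6.22, 11.3 and 6.53 CPM in untreated, with treated replicate 1 below the untreated hearts and a log2 fold change of 1.92 (SE 0.60, adjusted p = 0.0481, edgeR). Dusp1, with the most counts, had 432, 282 and 319.8 CPM in EMPA + PFD and 449, 432 and 461 CPM in untreated, with overlap. Immediate early genes had 2 higher with the term for Eif2s3y counts (median 0.25).

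Promoters are shown for 1 early gene and 2 clock genes, because each holds the motif commonly tied to its list. Sequences came from the RefSeq promoter table of GRCr8 and span 300 bases around the gene start. The table held 10 of the 12 called members and lacked Nr4a3 and Wee1. The cAMP response element TGACGTCA and the E-box CACGTG, to which clock factors bind, were searched on both strands and are in capitals. Over all 27457 promoters of this length, 1.91% held the first and 6.65% the second. Of the early genes, Ier2 held 1 cAMP response element and Klf6 held 1 E-box. Of the clock genes, Ciart held 3 E-boxes and Tef held 1, and neither motif was found in the windows of Per2, Cry2, Npas2, Usp2, Nr4a2 and Klf4. The promoters lie at chr19:40399123-40399422 (plus strand) for Ier2, chr7:115206577-115206876 (plus strand) for Tef and chr2:186112197-186112496 (minus strand) for Ciart. A match is a description of the letters only.
Ier2: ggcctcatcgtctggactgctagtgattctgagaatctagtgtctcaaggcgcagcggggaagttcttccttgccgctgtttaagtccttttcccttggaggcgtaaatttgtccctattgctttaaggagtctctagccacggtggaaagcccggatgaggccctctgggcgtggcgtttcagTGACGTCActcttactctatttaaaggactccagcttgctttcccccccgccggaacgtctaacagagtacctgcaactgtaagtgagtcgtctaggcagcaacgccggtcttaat
Tef: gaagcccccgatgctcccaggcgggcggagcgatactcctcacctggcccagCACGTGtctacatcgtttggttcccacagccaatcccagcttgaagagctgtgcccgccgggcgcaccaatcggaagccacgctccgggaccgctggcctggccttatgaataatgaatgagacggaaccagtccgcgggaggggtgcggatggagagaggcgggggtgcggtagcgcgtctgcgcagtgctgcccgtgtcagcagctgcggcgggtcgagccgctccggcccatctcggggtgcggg
Ciart: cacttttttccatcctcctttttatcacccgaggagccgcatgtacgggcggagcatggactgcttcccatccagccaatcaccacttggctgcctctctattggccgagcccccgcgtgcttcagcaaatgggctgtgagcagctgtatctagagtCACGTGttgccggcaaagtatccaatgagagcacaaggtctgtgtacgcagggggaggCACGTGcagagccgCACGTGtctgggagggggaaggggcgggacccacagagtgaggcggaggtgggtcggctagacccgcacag

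Of 33 heat shock and chaperone genes 5 rose and 0 fell (median 0.47, 0.26 without untreated replicate 2, where 0 passed). The cochaperone Dnajb4 measured 116, 249 and 209 CPM in EMPA + PFD and 106, 70.6 and 105 CPM in untreated, and Hspa4 and Dnaja2 changed by 0.62 and 0.63, while Cryab, with the most counts, had 0.47 and overlapping groups. In the unfolded protein and integrated stress response 2 of 38 rose and 2 fell (median 0.064, 0.11 without that library, where 1 passed). Each direction held 5.26% of the list, near the shares of all tested genes (6.6% higher and 5.52% lower). Herpud1, of endoplasmic reticulum degradation, measured 249, 469 and 450.4 CPM in EMPA + PFD and 210.5, 108 and 190.3 CPM in untreated, Atf5 changed by −0.73 and Creld2 by −0.53, and Hspa5, with the most counts, had 0.37 without passing. Among antioxidant genes 2 of 37 rose and 2 fell (median 0.20, 0.025 without untreated replicate 2, where 0 passed), 5.41% each way and also near the shares of all tested genes. Catalase (Cat) measured 391, 626 and 548 CPM in EMPA + PFD and 354, 149.6 and 249.7 CPM in untreated, the glutamate-cysteine ligase subunit Gclm changed by 0.76, and Cyba, a subunit of NADPH oxidase, by −1.03. Gpx3, with the most counts, had −0.75 and overlapping groups and did not pass. In proteolysis and autophagy 5 of 31 rose and 0 fell (median 0.37, 0.17 without untreated replicate 2, where 1 passed). Fbxo32, the muscle ubiquitin ligase atrogin-1, measured 40.9, 56.3 and 46.8 CPM in EMPA + PFD and 20.2, 9.50 and 15.4 CPM in untreated, a change of 1.68 (SE 0.24, adjusted p = 0.00482, edgeR) that passed with any 1 library left out. Fbxo30 and Map1lc3b changed by 1.16 and 0.64. Ubb, with the most counts, had 0.27 and did not pass. In insulin and AMPK signaling 9 of 35 rose and 1 fell (median 0.31, 0.23 without untreated replicate 2, where 1 passed), among them Prkaa2, Pik3r1 and the insulin receptor Insr, at 48.6, 93.6 and 62.8 CPM in EMPA + PFD and 41.4, 27.0 and 30.8 CPM in untreated. Acacb, with the most counts, measured 578, 887 and 760.4 CPM in EMPA + PFD and 428, 318 and 358 CPM in untreated and did not pass. Heat shock genes had 2 higher with the term for Eif2s3y counts (median 0.93), the unfolded protein list 2 higher (median 0.45), antioxidant genes 0 calls (median 0.36), proteolysis and autophagy 2 higher (median 0.41) and insulin and AMPK signaling 5 higher (median 0.36).

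In the TGF-beta list 8 of 46 fell (17.4%, against 5.52% of all tested genes) and 0 rose (median −0.62), and 2 passed without untreated replicate 2 (median −0.30). Eng, the endothelial coreceptor endoglin, measured 425, 314 and 313 CPM in EMPA + PFD and 674, 1060.0 and 686 CPM in untreated, with a log2 fold change of −1.20 (SE 0.20, adjusted p = 0.00677, edgeR), and was the member that passed with any 1 library left out. Acvrl1, the receptor kinase that works with endoglin, measured 145, 128 and 126 CPM in EMPA + PFD and 231, 289.9 and 264 CPM in untreated, and the ligand gene Tgfb1 37.5, 31.2 and 32.0 CPM in EMPA + PFD and 53.9, 68.6 and 63.4 CPM in untreated. No treated heart reached the untreated range in these 3 genes. Ltbp4, with the most counts, had −0.82 and did not pass. Of 46 collagen and matrix genes 0 rose and 1 fell, 2.17% (median −0.69, −0.38 without that library, where 0 passed). It was Loxl1, which crosslinks elastin, at 28.5, 22.6 and 22.3 CPM in EMPA + PFD and 52.1, 221 and 84.9 CPM in untreated, and its −2.29 became −1.49 (adjusted p = 0.241, edgeR) without replicate 2. The list summed to 12111, 7658 and 10869 CPM in EMPA + PFD and 11724, 21489.6 and 13246 CPM in untreated. Treated replicates 1 and 3 thus lay near untreated replicate 1, and untreated replicate 2 was the highest. Sparc, with the most counts, had −0.56 and did not pass. Of 31 matrix proteases and inhibitors 0 rose and 1 fell, 3.23% (median −0.36, −0.029 without it, where 1 passed). Adam17, which sheds membrane-bound cytokines, measured 98.2, 67.1 and 71.2 CPM in EMPA + PFD and 139, 196 and 169.9 CPM in untreated and passed with any 1 library left out, and Ctsb had −0.039. In the Wnt list 1 of 33 fell and 0 rose (median −0.22, −0.12 without it, where 0 passed), the secreted Wnt modulator Sfrp2, at 7.33, 6.93 and 6.89 CPM in EMPA + PFD and 40.7, 303 and 21.6 CPM in untreated, whose −4.11 became −2.14. Ctnnb1 had −0.33 and did not pass. The TGF-beta list had 1 higher and 2 lower with the term for Eif2s3y counts (median −0.27), collagens and matrix 0 calls (median 0.028), matrix proteases and inhibitors 0 calls (median 0.35) and the Wnt list 1 higher (median −0.075).

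In the immune lists the called genes were lower. Of all tested genes 5.52% were called lower. The endothelial markers summed to 4155, 3859 and 3882 CPM in EMPA + PFD and 5954, 6835 and 6413 CPM in untreated, lower in each treated heart. Neutrophil markers, at few counts, were also lower in each treated heart, with sums of 13.0, 34.7 and 32.4 CPM in EMPA + PFD and 36.6, 54.0 and 50.2 CPM in untreated, and 4 of 6 tested had an unadjusted p under 0.05, against 32.7% of all genes, while DESeq2 and limma voom called 0 of them. The part of the endothelial and neutrophil markers in the values that follow was not tested. Of 56 chemokines, cytokines and receptors 8 fell and 0 rose (median −0.67), and 2 passed without untreated replicate 2 (median −0.48). Cxcl12, which retains leukocytes and progenitors in tissue, measured 429.6, 264 and 363 CPM in EMPA + PFD and 901, 692 and 919 CPM in untreated, with a log2 fold change of −1.25 (SE 0.27, adjusted p = 0.0156, edgeR), and −1.37 without that library. Cxcl16, a membrane-bound chemokine, measured 29.2, 21.5 and 38.3 CPM in EMPA + PFD and 56.9, 79.3 and 73.4 CPM in untreated, also without overlap. In the NF-kB list 5 of 40 fell and 0 rose (median −0.56, −0.31 without it, where 2 passed). Icam1, to which leukocytes adhere, measured 28.0, 16.7 and 19.3 CPM in EMPA + PFD and 46.5, 66.6 and 46.5 CPM in untreated, Tnfaip2 17.5, 14.5 and 20.2 CPM in EMPA + PFD and 29.4, 65.1 and 38.4 CPM in untreated and the coactivator Bcl3 11.1, 6.46 and 6.37 CPM in EMPA + PFD and 14.0, 24.3 and 21.2 CPM in untreated. Each was lower in every treated heart, by −1.32, −1.35 and −1.32, or −1.12, −0.96 and −1.14 without replicate 2. Sod2, with the most counts, had 667, 882 and 795 CPM in EMPA + PFD and 575, 131 and 441 CPM in untreated and did not pass. In the interferon list 6 of 33 fell and 0 rose (median −0.32, −0.27 without it, where 2 passed). Parp14 measured 50.6, 33.5 and 40.7 CPM in EMPA + PFD and 72.7, 69.9 and 75.3 CPM in untreated, the immunoproteasome subunit Psmb9 34.8, 25.6 and 24.7 CPM in EMPA + PFD and 53.7, 55.7 and 56.8 CPM in untreated and the peptide transporter Tap1 46.2, 40.1 and 42.3 CPM in EMPA + PFD and 74.4, 64.7 and 81.7 CPM in untreated. All treated hearts were below all untreated ones in these 3 genes, and the untreated hearts were close to each other in Parp14 and Psmb9. Ifi27, with the most counts, had −0.20 and did not pass. Of 23 genes of the major histocompatibility complex 3 fell and 0 rose (median −0.39, −0.48 without untreated replicate 2, where 0 passed). These were RT1-A2, at 52.0, 43.3 and 13.2 CPM in EMPA + PFD and 80.6, 73.9 and 83.0 CPM in untreated, RT1-M3-1 (−0.77) and RT1-N3 (−0.69), which belong to a family of near-identical genes, so that their counts are uncertain. B2m, with the most counts, had −0.38 and did not pass. In the cell cycle 1 of 42 fell and 0 rose (median −0.29, −0.12 without untreated replicate 2, where 0 passed), Ccnd1, at 84.4, 48.8 and 99.9 CPM in EMPA + PFD and 121, 164 and 187 CPM in untreated. Ccnd3, with the most counts, had −0.072 and did not pass. Chemokines and cytokines had 1 higher and 2 lower with the term for Eif2s3y counts (median −0.11), the NF-kB list 1 higher and 1 lower (median −0.18), the interferon list 3 lower (median −0.82), the histocompatibility genes 1 lower (median −0.33) and the cell cycle 1 lower (median 0.30).

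Of 40 angiogenesis genes 7 fell and 3 rose (median −0.54, −0.54 without untreated replicate 2, where 1 passed upward and 1 downward). The Notch ligand Jag1 measured 68.7, 27.3 and 39.9 CPM in EMPA + PFD and 87.9, 123 and 109 CPM in untreated, lower in each treated heart by −1.24. Angpt1, the ligand of the Tie2 receptor, measured 29.6, 57.0 and 58.2 CPM in EMPA + PFD and 14.8, 8.28 and 5.37 CPM in untreated and rose by 2.35, as Fgf1 did. Vegfa, with the most counts, had 1874, 1539 and 1404 CPM in EMPA + PFD and 1694, 1285 and 2171 CPM in untreated, with overlap. The 16 endothelial markers summed to 4155, 3859 and 3882 CPM in EMPA + PFD and 5954, 6835 and 6413 CPM in untreated, without overlap. None of them was at 0, and 3 fell and 0 rose (median −0.67, −0.56 without that library, where 1 passed), namely Eng, Egfl7 at 195, 137 and 107 CPM in EMPA + PFD and 269.9, 343 and 314 CPM in untreated and Mmrn2 at 136, 128 and 148 CPM in EMPA + PFD and 193, 229.6 and 214 CPM in untreated. Ptprb, with the most counts, had −0.53 and did not pass. The endothelial sum was lower, as were most called genes of the angiogenesis and TGF-beta lists, and its part in their values was not tested. Angiogenesis had 1 higher and 6 lower with the term for Eif2s3y counts (median −0.70) and the endothelial markers 5 lower (median −1.40).

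Markers of the other cell types passed in small numbers, against 12.1% of all tested genes (6.6% higher and 5.52% lower). In the atrial (7.14% higher, 14.3% lower), conduction (11.1% higher, 11.1% lower) and erythroid markers (12.5% higher) the share called was not below 12.1%. The ventricular list had 1 of 14 higher, Ryr2, and 0 lower (median 0.82, 0.40 without untreated replicate 2, where 0 passed). The fibroblast markers, with Gsn as the most abundant, summed to 11344, 4168 and 8076 CPM in EMPA + PFD and 9277, 16777 and 8084 CPM in untreated, with overlap. Of 17 tested, Dpep1 rose and Pi16 fell (median −0.71, −0.11 without that library, where 0 passed), and Pi16 measured 40.0, 44.5 and 51.4 CPM in EMPA + PFD and 96.3, 476 and 208 CPM in untreated. The macrophage markers summed to 479, 484 and 742 CPM in EMPA + PFD and 633, 1312 and 690.1 CPM in untreated, and 0 of 18 passed in edgeR (median −0.68, −0.35 without it, where 0 passed). Among these markers, 3 of 18 had an unadjusted p under 0.05 (all genes 32.7%), DESeq2 called 1 (all genes 20.6%) and limma voom 0 (all genes 30%). Lyz2, the most abundant of them, measured 110.2, 134 and 146 CPM in EMPA + PFD and 148, 352 and 189 CPM in untreated. Also 0 passed among the markers of lymphatic (6 tested, median 0.22, 0.36 without untreated replicate 2), lymphocyte (19 tested, median −0.70, −0.72 without untreated replicate 2), neutrophil (6 tested, median −1.19, −1.08 without untreated replicate 2), mast cell (8 tested, median −0.64, −0.027 without untreated replicate 2), adipocyte (8 tested, median −0.68, −0.59 without untreated replicate 2), Schwann cell (12 tested, median −0.75, −0.29 without untreated replicate 2) and mesothelial cells (8, −0.996, −0.44). Over these lists together, 18 of 67 had an unadjusted p under 0.05 (all genes 32.7%), DESeq2 called 6 (all genes 20.6%) and limma voom 8 (all genes 30%). Their most abundant members were Ccl21, Cd4, Lcn2, Kit, Fabp4, Scn7a and Wt1, with log2 fold changes of 0.29, −0.59, −0.41, −0.44, −0.39, −0.85 and −0.50. In smooth muscle and pericyte markers 1 of 15 rose, Myocd, by 0.91 (median −0.56, −0.63 without untreated replicate 2, where 0 passed). In erythroid markers Slc4a1 and Sptb of 16 rose (median 0.43, 0.19 without that library, where 2 passed). In conduction markers Hcn4 rose and Cacna1g fell of 9 (median −0.17, 0.15 without that library, where 0 passed). In skeletal muscle Tnni1 rose of 10 (median −0.40, −0.34 without that library, where 0 passed), and Casq1, with the most counts, had 0.88. Of 15 cartilage, bone and valve markers Prg4 fell, at 6.15, 8.61 and 7.84 CPM in EMPA + PFD and 16.1, 28.6 and 31.4 CPM in untreated (median −0.63, −0.41 without that library, where 0 passed). Alpl, with the most counts, had −0.58 and did not pass. In the atrial list Kcnj3 rose and Myl4 and Sln fell of 14 (median −0.71, −0.23 without untreated replicate 2, where 0 passed). Medians that changed sign with the term for Eif2s3y counts were 0.044 for conduction tissue markers, 0.84 for macrophage and monocyte markers, 0.89 for Schwann cell and nerve markers, 0.34 for mesothelium and epicardium markers, 0.55 for skeletal muscle markers and 3.17 for cartilage and valve markers, with 1 called among them.

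The single-drug groups, with 2 libraries each, share the untreated controls, and their values are set beside those of the combination without a test of the difference. Cryl1 measured 16.5 and 11.7 CPM in EMPA and 74.3 and 79.1 CPM in PFD, so that PFD lay between untreated and EMPA + PFD and EMPA did not exceed untreated. Acss3 measured 0.266 and 0.243 CPM in EMPA and 1.53 and 1.34 CPM in PFD, and Chrm2 11.6 and 11.4 CPM in EMPA and 23.1 and 22.7 CPM in PFD, each below all EMPA + PFD libraries. Angptl4 measured 54.5 and 61.6 CPM in EMPA and 66.2 and 29.1 CPM in PFD, above the untreated libraries in both drugs. Slc4a1 measured 48.3 and 16.0 CPM in EMPA and 4.82 and 20.3 CPM in PFD, with wide spread. Scn1a measured 34.5 and 37.7 CPM in EMPA and 39.9 and 26.5 CPM in PFD, all above the untreated libraries, and passed in both (2.20, adjusted p = 0.00657 in EMPA and 2.08, adjusted p = 0.0250 in PFD, edgeR). Of the genes that were lower, Lrat measured 12.0 and 12.0 CPM in EMPA and 14.6 and 15.4 CPM in PFD and Tlx1 0.799 and 2.31 CPM in EMPA and 2.08 and 2.78 CPM in PFD, and each of these libraries was below the lowest untreated one. Smox measured 30.9 and 28.8 CPM in EMPA and 24.2 and 28.8 CPM in PFD, and Csf1 59.7 and 64.7 CPM in EMPA and 46.6 and 50.3 CPM in PFD, all above the EMPA + PFD range. Eif2s3y was at 0 counts in both PFD libraries and at 676 and 789 counts in EMPA, so that its split also runs between the single drugs, while PFD and untreated libraries do not differ in it.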

How the data were processed

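The authors deposited raw counts, as whole numbers for each gene symbol, after Trim Galore, alignment by HISAT2 to rn6 and counting by HTSeq. Versions, strand setting and annotation are not given in the sources used here, and no rn6 annotation was used here, so gene lengths and overlapping or antisense genes could not be examined and levels are compared only within a gene. Groups and replicate numbers came from the sample titles.

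Counts of all 19 libraries were normalized by TMM and fitted as 7 group means in edgeR 4.0.16 under R 4.3.3, over the 12388 of 17455 genes kept by filterByExpr. The groups were compared by the quasi-likelihood F test, two-sided, with Benjamini-Hochberg adjustment over all tested genes. The adjusted p of every edgeR result comes from this test. The script was first tested on simulated data. An exact permutation test of 3 against 3 hearts cannot give a p below 0.1. Where a library had 0 counts of a gene, the floor was set at 3 counts (0.244 to 0.359 CPM in the 6 libraries), which covers counting error only.

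Named are the DEGs that stayed DEGs with any 1 of the 6 libraries left out, did not overlap and had at least 1 CPM on average (the 15 with the highest and up to 15 with the lowest fold change, without unnamed loci and without the PKC and GPCR genes of the paper), in each list up to 3 called members with the smallest adjusted p and the member with the most counts, the 5 genes with the most counts, and the Y-linked genes. The clock and immediate early genes named with the promoters are the called members of those lists. The members and the 32 gene lists and 19 marker lists were chosen with earlier results of these data known. Members missing from the files or removed by the filter are not counted as tested.

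The alternatives were relative log expression and upper quartile normalization, no filter beyond 1 count, at least 10 counts in every library, DESeq2 1.42.0, voom with sample quality weights in limma 3.58.1, fits on the 6 libraries or on the 11 of week 9, the adjusted p alone, a replicate block, a term for Eif2s3y counts and the omission of each library. A few genes are not reported here. Physiology, histology and protein measurements have no counts and were not analysed here.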

Additional observations from a re-analysis of the deposited data

How the results depend on the processing

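The number of DEGs was 473 and stayed within 1.5 times of it with relative log expression (469), the upper quartile (515), no filter (429), at least 10 counts in every library (426), the week 9 libraries (510) and the term for Eif2s3y counts (429). It was 714 in DESeq2, 834 in limma voom, 1501 by the adjusted p alone and 5 on the 6 libraries, where 3226 genes had an unadjusted p under 0.05 and the spread came from fewer samples. With 1 library left out it ran from 59 to 910. The causes of these shifts were not tested. The upper quartile moved the median of all genes to −0.12 on the log2 scale. Under the term for Eif2s3y counts, 114 of the 473 genes were again DEGs.

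A replicate block gave 380 DEGs, but nothing here shows that the numbers pair the hearts. The deviations of same-numbered libraries from their group means had correlations across genes of −0.063, −0.24 and −0.18. The highest of the 9 pairs was 0.25, for EMPA + PFD replicate 2 and untreated replicate 3. Deviations from a mean of 3 libraries sum to 0, so these correlations cannot settle the pairing.

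Of the 120 named genes with an adjusted p under 0.05, those that passed again in the same direction numbered 118 with relative log expression, 116 with the upper quartile, 110 with no filter, 109 with at least 10 counts in every library, 118 with DESeq2, 115 with limma voom, 108 with the week 9 libraries, 104 with the replicate block, 36 with the term for Eif2s3y counts and 5 with the 6 libraries, and between 34 and 115 with 1 library left out. List medians changed sign with the term for Eif2s3y counts in sodium, glucose and proton transport (0.48); fetal and hypertrophy genes (0.58); renin, angiotensin and steroid receptors (0.24); collagens and matrix (0.028); matrix proteases and inhibitors (0.35); immediate early genes (0.25); cell cycle (0.30); conduction tissue (0.044); macrophage and monocyte (0.84); Schwann cell and nerve (0.89); mesothelium and epicardium (0.34); skeletal muscle (0.55); cartilage, bone and valve (3.17). They also did in limma voom for conduction tissue (0.55) and renin and steroid receptors (0.027), with the upper quartile for the unfolded protein list (−0.030), without untreated replicate 2 for those of conduction tissue (0.15) and renin (0.035), without EMPA + PFD replicate 3 for lymphatic markers (−0.30), without EMPA + PFD replicate 2 for erythroid markers (−0.11) and without any 1 library for fetal genes (up to 0.11).

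Among the named genes, the direction changed in these cases (log2 fold changes under the alternative), and the cause was not tested. With the term for Eif2s3y counts they were Abcc9 (−0.041), Acacb (−0.35), Cd4 (1.10), Ctsb (1.03), Dusp1 (0.34), LOC100911498 (1.46), Lyz2 (1.48), Perm1 (−0.044) and Scn7a (0.99), and with limma voom Ctsb (0.017), Ddx3y (−0.020), Gja1 (−0.013), Hbb (−0.37), Myh7 (−0.083) and Scn7a (0.29). With the upper quartile it was Hbb (−0.028). With 1 library left out, the lowest and highest values were −0.28 to 0.93 for Ccl21, −0.23 to 0.036 for Ccnd3, −0.11 to 0.045 for Ctsb, −0.67 to 0.62 for Ddx3y, −0.87 to 0.0077 for Gsn, −0.64 to 0.45 for Hbb, −0.12 to 0.0088 for Nr3c1, −0.069 to 0.45 for Per1, −1.22 to 0.26 for Scn7a, −8.90 to 0.16 for Sln and −0.27 to 0.12 for Vegfa. Of these, LOC100911498 and Sln had passed the test with all libraries; the others had not.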
